A study of Mus musculus with 2 samples.

Results

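Genes of the acute phase response that encode plasma proteins, and 1 membrane reductase, were followed in hepatocyte preparations from undamaged and regenerating mouse liver. The 10 genes, out of 27998 in the files, were chosen by name and all 10 were found. They were the orosomucoids Orm1 and Orm2, haptoglobin (Hp), the inter-alpha-trypsin inhibitor heavy chains Itih3 and Itih4, Fgl1, Steap4, Crp, Lbp and Serpina3n. Their levels were read in 2 sets of barcodes per library, those with over 30% and those with under 2% mitochondrial unique molecular identifiers (UMIs). A UMI stands for 1 captured transcript molecule, and a barcode for the content of 1 droplet.

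The single-cell RNA-Seq (scRNA-Seq) part of the study held 2 libraries of hepatocytes from C57BL/6 mice on normal chow, obtained by collagenase perfusion in 2 steps and profiled with 10X Genomics version 2 chemistry. Labels place the animals at 10 to 12 weeks of age, and the study's methods give a somewhat younger age at surgery. The first library came from healthy liver without damage (0 h), although its protocol label names partial hepatectomy (PHx), in which most of the liver is cut away. The second came from liver 48 h after PHx (PHx48h), and each library was made from part of 1 hepatocyte preparation, with no replicate. The study's methods describe the mice as C57BL/6J males and name no transgene or drug.

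When tissue is injured or inflamed, macrophages and other cells release interleukin 6 and related cytokines, which act on hepatocytes through the receptor subunit gp130, the kinase JAK1 and the transcription factor STAT3, together with C/EBP and NF-kB factors. Hepatocytes then secrete more of the positive acute phase proteins and less of the negative ones, such as albumin. The proteins studied here bind drugs and lipids, capture free haemoglobin, stabilise the matrix, inhibit proteases or recognise bacterial lipids and damaged cells. In mice, unlike humans, Crp is a minor acute phase protein, and the serum amyloid proteins and pentraxin Apcs respond more strongly.

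Coordinates are those of GRCm38 in the GENCODE M21 annotation, and every member is a protein-coding gene there. Orm1 (chr4:63344560-63348163) and Orm2 (chr4:63362449-63365878) are neighbours on the plus strand. Itih4 (chr14:30886476-30902353, plus strand) and Itih3 (chr14:30908572-30923760, minus strand) also lie beside each other. Hp (chr8:109575128-109579172) and Fgl1 (chr8:41191434-41215156) are on the minus strand of the same chromosome. The remaining 4 are Steap4 (chr5:7960457-7982213), Crp (chr1:172698055-172833031), Lbp (chr2:158306493-158332852) and Serpina3n (chr12:104406729-104414329), all on the plus strand.

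The 2 orosomucoids are so alike that a read may not tell them apart, which bears on every Orm1 and Orm2 value. Their coding sequences of 624 bases share 561 positions (89.9%), and 147 of the 451 windows of 50 bases (32.6%) in the last 500 bases of the Orm1 transcript are also found in Orm2. The final 90 coding bases of both, with the 5 differing bases in capitals, show how few bases separate them near the end that this chemistry reads.
Orm1: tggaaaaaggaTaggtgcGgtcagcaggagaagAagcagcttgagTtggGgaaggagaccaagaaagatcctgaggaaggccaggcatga
Orm2: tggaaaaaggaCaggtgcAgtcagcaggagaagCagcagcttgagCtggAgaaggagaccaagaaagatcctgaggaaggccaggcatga
Itih3 and Itih4 are less alike (65.1% over 2561 aligned coding bases) and share 0 such windows.

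The bases just before the start sites are shown for Orm2, the member that rose most, and Crp, the member that fell most. They are the 150 bases upstream of the start in the RefSeq promoter table (GRCm38.p6), which held 6 of the 10 members (Orm2, Itih3, Itih4, Steap4, Crp and Serpina3n). Capitals mark matches, on either strand, to the STAT palindrome TTCNNNGAA, the STAT3 element core CTGGGA, the C/EBP palindrome TTGCGCAA or the TATA box TATAAA.
Orm2 (chr4:63362299-63362448, plus strand): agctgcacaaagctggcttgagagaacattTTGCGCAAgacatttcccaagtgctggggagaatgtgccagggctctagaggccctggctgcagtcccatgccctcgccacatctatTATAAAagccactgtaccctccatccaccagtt
Crp (chr1:172697906-172698055, plus strand): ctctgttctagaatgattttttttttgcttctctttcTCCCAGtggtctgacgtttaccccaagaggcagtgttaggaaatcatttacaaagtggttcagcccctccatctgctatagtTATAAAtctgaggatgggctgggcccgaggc
Orm2 was the only 1 of the 6 with TTGCGCAA, which began 120 bases before its start and which 50 of all 27025 promoters of the same 300-base window held (0.185%). The palindrome TTCNNNGAA was found in Steap4 (TTCCCGGAA) and Itih4 (TTCCGAGAA), against 8.47% of all promoters. CTGGGA or its reverse complement was found in Itih4, Steap4 and Crp, against 31.5%, and TATAAA in 5 of the 6, against 14.2%. These are matches of letters and were not tested for binding.

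Both libraries carried features that touch all values. The undamaged library held 59202 barcodes and the PHx48h library 1586, with median depths of 1436 and 6838.5 UMIs, and 148 barcode sequences occurred in both. Over 30% mitochondrial UMIs were found in 3870 undamaged barcodes (6.54%) and 765 PHx48h barcodes (48.2%), while 52587 (88.8%) and 522 (32.9%) had under 2%. Mitochondrial UMIs, from 13 genes, were left out of the scaling, so a level is given in counts per 1000000 non-mitochondrial UMIs (CPM) summed over a set. The over 30% sets summed to 5778391 such UMIs at 0 h and 5103719 at 48 h, and the under 2% sets to 78751891 and 3135996. All 10 hepatocyte markers were detected in every set, with a summed level of 95053 CPM at 0 h and 66038 CPM at 48 h under 2%, and of 107707 and 104922 CPM over 30%. Summed markers of bile duct cells were at 35.4 and 138 CPM under 2% and at 47.4 and 132 CPM over 30%, with Krt19 at 0 in the 3 sets other than the undamaged one under 2%. Krt7 and Epcam were also at 0 over 30% at 0 h. Under 2% at 48 h Krt7, Epcam and Cldn7 were at 0 too, so the sum there came from only 3 of the 7 markers. Summed red cell markers were at 246 and 27.7 CPM under 2%, and at 54.5 and 27.6 CPM over 30%. Their part in the members' differences was not tested.

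Free RNA in a droplet gives UMIs of genes that its cell does not express, and values of the undamaged barcodes under 2% bear on this. Those with at least 3 macrophage markers (72 barcodes) held haptoglobin at 2069 CPM and those with endothelial markers (94) at 2392 CPM, against 2966 CPM in barcodes of no such class, with median depths of 1828.5, 1734 and 1412 non-mitochondrial UMIs. Orm1 was at 673, 849 and 968 CPM in the same barcodes. Levels and ratios under 2% were therefore read as those of the set, and not as expression by single hepatocytes, and the part of free RNA in them was not tested.

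Brackets after a level or ratio give exact 95% intervals that cover counting error only. With 1 library per group there is no test between time points, and variation between mice is unknown. A gene is said to have risen or fallen when its CPM differed by at least 2-fold between the sets compared.

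In barcodes over 30% mitochondrial UMIs, Orm2 and Fgl1 rose after PHx, and Crp and Lbp fell. Of all 8533 genes with a mean of at least 5 CPM, 30.9% rose and 5.14% fell, against 2 and 2 of the 10 members. The median of all these genes was itself 0.55 higher at 48 h on the log2 scale, and the median of the members was 0.28. Relative to that median gene, Orm2 (2.58), Fgl1 (0.61) and Serpina3n (0.42) were higher, Steap4 was level (-0.01), and the remaining 6 were lower.

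In barcodes under 2% mitochondrial UMIs, Orm1, Orm2 and Fgl1 rose, and Crp and Lbp fell. Here 24.3% of 7530 genes rose and 20.7% fell, and the median gene differed by 0.05. The median of the members was -0.13 on the log2 scale. Orm2, Fgl1, Crp and Lbp thus passed the 2-fold limit in the same direction in both sets, and Orm1 passed it only among the barcodes with few mitochondrial UMIs.

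**Figure D1:**
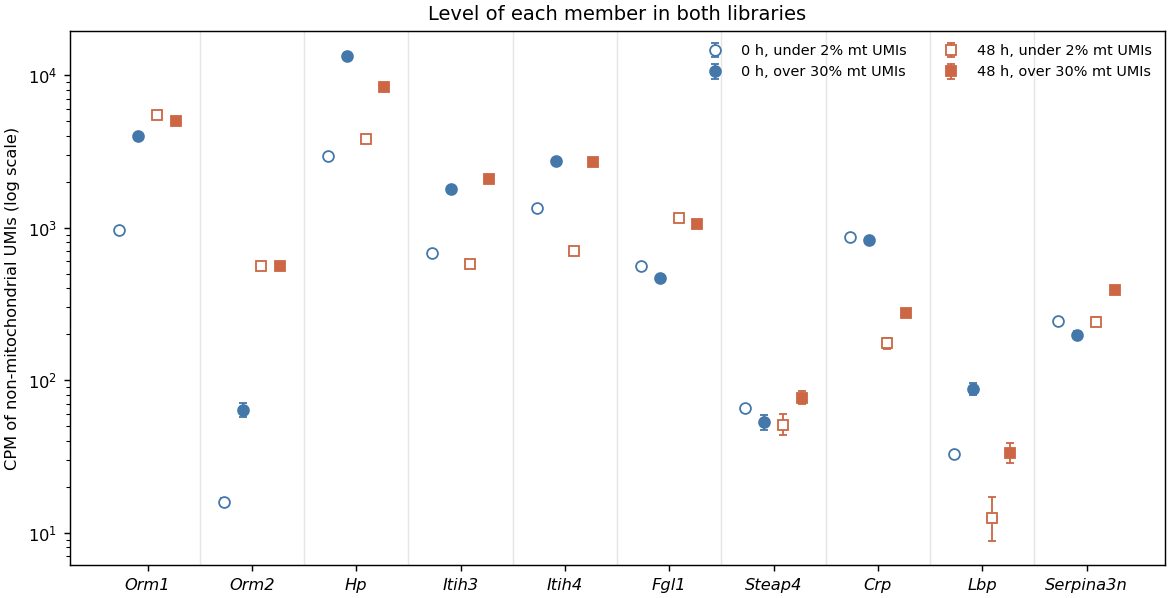
Level of each of the 10 genes in CPM of non-mitochondrial UMIs on a log scale, at 0 h (blue circles) and 48 h (orange squares), in barcodes under 2% (open) and over 30% (filled) mitochondrial UMIs, with exact Poisson 95% intervals. Both 48 h values of Orm2 (561 and 558 CPM) lie far above both 0 h values (15.9 and 63.7), while both 48 h values of Crp (175 and 277) lie below those at 0 h (867 and 828).

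The plot of levels by set shows 2 kinds of pattern among 8 of the 10 members. For Orm1, Orm2, Fgl1 and Crp, both 48 h values lay on 1 side of both 0 h values. For Hp, Itih3, Itih4 and Lbp, the 2 filled symbols lay above the 2 open ones whatever the time point. For Lbp this was within counting error, with 33.3 CPM (28.5 to 38.7) over 30% at 48 h. Its level under 2% at 0 h was 32.7 CPM (31.4 to 34.0). Steap4 and Serpina3n followed neither pattern.

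Orosomucoid, also called alpha-1-acid glycoprotein, is a heavily glycosylated plasma carrier of basic drugs and lipids. In the undamaged library Orm2 was read at 15.9 CPM (15.0 to 16.8) under 2% and 63.7 CPM (57.3 to 70.5) over 30% mitochondrial UMIs. After PHx it stood at 561 CPM (535 to 588) and 558 CPM (537 to 579). The 0 h sets thus differed by 4.02-fold from each other, whereas the 48 h sets were level.
The rise was 8.76-fold (7.85 to 9.79) over 30% mitochondrial UMIs and 35.4-fold (32.9 to 38.1) under 2%. It exceeded that of 97.9% and 99.3% of all genes compared.

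Orm1 was read at 966 CPM under 2% and 3970 CPM over 30% mitochondrial UMIs at 0 h, and at 5472 and 4988 CPM at 48 h. The rise was 5.66-fold (5.57 to 5.76) under 2%. Over 30% the level was 1.26-fold higher (1.23 to 1.28), which is lower than the median gene by 0.22 on the log2 scale. The difference of the log2 ratios between the 2 sets was -2.17 (-2.21 to -2.14) for Orm1 and -2.01 (-2.20 to -1.83) for Orm2.

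The balance between the 2 genes moved with time and hardly with mitochondrial share. Orm2 supplied 1.61%, 1.78% and 1.58% of the UMIs of the pair at 0 h in barcodes under 2%, from 2 to 30% and over 30%. At 48 h it supplied 9.30%, 9.0% and 10.1%. How reads common to both genes were assigned was not tested. The remaining copy, Orm3, went from 10.0 to 19.2 CPM over 30% mitochondrial UMIs and from 3.82 to 22.3 CPM under 2%.

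Haptoglobin binds haemoglobin released from red cells, which otherwise damages the kidney. Its level at 0 h was 2960 CPM under 2% and 13376 CPM over 30% mitochondrial UMIs. At 48 h it was 3845 and 8378 CPM. The 2 sets moved in opposite directions, with a level 1.30-fold higher (1.28 to 1.32) at 48 h under 2% and 1.60-fold lower over 30%, and the difference of the log2 ratios was -1.05 (-1.08 to -1.02). Neither reached 2-fold.
Hemopexin (Hpx), which clears haem rather than haemoglobin, was higher at 48 h in both, at 2807 and 6416 CPM under 2% and at 7388 and 18307 CPM over 30%. Hmox1, the enzyme that degrades haem, stood at 4.09 and 7.97 CPM under 2%, and at 5.02 and 6.07 CPM over 30%. The haptoglobin receptor Cd163, a macrophage gene, was below 2 CPM in all 4 sets.

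**Figure D2:**
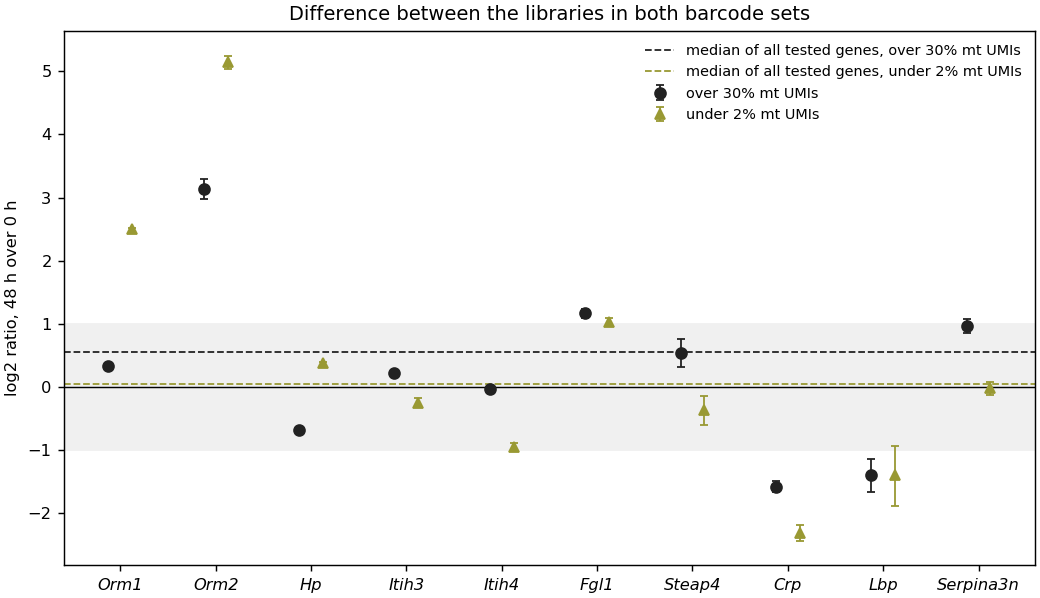
Log2 ratio of 48 h over 0 h for each gene in barcodes over 30% (black circles) and under 2% (olive triangles) mitochondrial UMIs, with exact 95% intervals, dashed lines at the median of all genes tested (0.55 and 0.05) and grey shading within 2-fold. Hp, Itih3 and Steap4 lie on opposite sides of 0 in the 2 sets, whereas Lbp has the same ratio in both.

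Itih3 is a heavy chain that attaches to hyaluronan and stabilises the extracellular matrix, and Itih4 is a related plasma protein known as an acute phase reactant. Itih4 was read at 1349 CPM under 2% and 2733 CPM over 30% mitochondrial UMIs at 0 h, and at 699 and 2678 CPM at 48 h. Over 30% its log2 ratio was -0.03 (-0.06 to 0.00), a sign that turned when means of single barcodes (0.00) or the 1500 deepest barcodes of each library (0.12) were used. Under 2% the ratio was -0.95 (-1.01 to -0.89), just short of 2-fold.
Itih3 stood at 681 and 1784 CPM at 0 h and at 573 and 2089 CPM at 48 h. It was 1.17-fold higher (1.14 to 1.20) over 30%, but lower relative to the median gene (-0.32) and with other scalings (-0.03), and 1.19-fold lower under 2%. Its share of the UMIs of both genes was 33.6% and 39.5% at 0 h, and 45.1% and 43.8% at 48 h.

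The other genes of this protein family did not share 1 direction. Over 30% mitochondrial UMIs, the log2 ratio was -0.85 for Itih1, 0.90 for Itih2, 0.54 for Itih5 and -0.35 for Ambp, which encodes the light chain bikunin. Under 2% it was -2.12 for Itih1, the only 1 of the 6 genes to fall, -0.93 for Itih2, -0.27 for Itih5 and 0.13 for Ambp. At 48 h all 6 were at least 2-fold higher over 30% than under 2% mitochondrial UMIs, a difference that 34.9% of 8387 genes showed. The median gene was itself 0.60 higher on the log2 scale. Itih5 was only just at the limit, at 27.4 CPM (23.1 to 32.4) from 140 UMIs and 13.7 CPM (9.92 to 18.5) from 43 UMIs. A difference of under 2-fold was within counting error for it.

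Fgl1, a fibrinogen-like hepatokine and a ligand of the lymphocyte receptor LAG-3, had nearly the same level in both sets of a time point. It was read at 563 CPM under 2% and 470 CPM over 30% mitochondrial UMIs at 0 h, and at 1155 and 1055 CPM at 48 h. The time points thus lay further apart than the sets. The rise was 2.05-fold (1.98 to 2.12) under 2% and 2.24-fold (2.14 to 2.35) over 30%. The latter was no longer 2-fold, at 0.91 on the log2 scale, without the 20 most abundant genes in the scaling or with mitochondrial UMIs in it, and it was 0.61 relative to the median gene. Under 2% the interval reached below 2-fold, and the lowest log2 ratio among the alternatives was 0.81, also short of 2-fold. Lag3 itself was read at between 6.07 and 9.17 CPM.

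Steap4 is a metalloreductase of the plasma membrane and endosomes. It was read at 65.9 CPM (64.1 to 67.7) under 2% and 52.8 CPM (47.0 to 59.1) over 30% mitochondrial UMIs at 0 h. At 48 h the levels were 51.0 CPM (43.4 to 59.6) and 76.8 CPM (69.4 to 84.8). It was thus 1.46-fold higher (1.25 to 1.70) after PHx over 30% and 1.29-fold lower under 2%. The first difference vanished relative to the median gene (-0.01), and the second turned to 0.35 on the log2 scale when the lower limit was raised to 5%.

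Steap4 differed from the other members in barcodes that carried markers of other liver cells. In the 2 to 30% range, where markers of other liver cells were most frequent, its level was 180 CPM at 48 h, above both other ranges. Barcodes there with at least 3 of 10 stromal markers, genes of stellate cells and fibroblasts, held 962 CPM (840 to 1095) at 48 h, over 32 barcodes. At 0 h the value was 376 CPM (271 to 509) over 45 barcodes. Barcodes of the same range without such markers held 81.7 CPM at 48 h and 63.1 CPM at 0 h.
Endothelial markers went with 221 CPM at 48 h and 199 CPM at 0 h, and macrophage markers with 130 and 51.6 CPM. In both libraries 7 members (Orm1, Hp, Itih3, Itih4, Fgl1, Crp and Serpina3n) were lower with stromal markers than without, whereas Orm2 was lower at 48 h only and Lbp was at 21.0 CPM without and 25.4 CPM with them at 48 h. Haptoglobin had 4936 CPM without markers and 1618 CPM with stromal markers at 48 h. Serpina3n stood at 377 and 97.4 CPM in these barcodes. Summed stromal markers were at 32.7 CPM at 0 h and 190 CPM at 48 h in barcodes under 2% mitochondrial UMIs, and at 27.7 and 35.1 CPM over 30%, with all 10 markers detected in each. Without barcodes that held 3 markers of another class, the log2 ratio of Steap4 was 0.59 over 30% and -0.59 under 2%, the latter further from 0 than the value over all barcodes (-0.37).

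**Figure D3:**
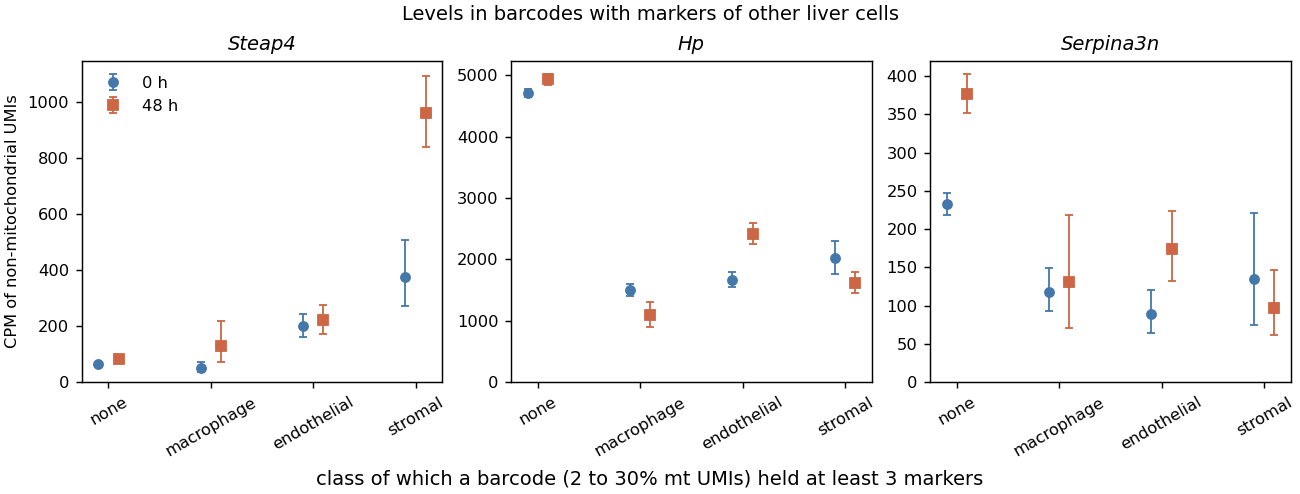
Level in CPM of non-mitochondrial UMIs of Steap4, Hp and Serpina3n in barcodes of 2 to 30% mitochondrial UMIs, split by the class of which a barcode held at least 3 markers, at 0 h (blue circles) and 48 h (orange squares), with exact Poisson 95% intervals. Steap4 reaches 962 CPM with stromal markers at 48 h, while Hp and Serpina3n are highest in barcodes without such markers.

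Crp, the short pentraxin that binds phosphocholine on bacteria and damaged membranes, fell most. It was read at 867 CPM (860 to 873) under 2% and 828 CPM (805 to 852) over 30% mitochondrial UMIs at 0 h. At 48 h the levels were 175 CPM (160 to 190) and 277 CPM (263 to 292). The fall was 4.96-fold under 2% and 2.99-fold over 30%, and the log2 ratios of -2.31 and -1.58 stayed beyond 2-fold in every alternative tried. Only 1.86% of all genes compared had a lower ratio over 30%. The other short pentraxin, Apcs, went from 112 to 287 CPM under 2% and from 136 to 233 CPM over 30%, so the 2 pentraxins took opposite directions.

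Lbp, which hands bacterial lipopolysaccharide to the receptor CD14, was counted from few UMIs. It was read at 32.7 CPM (31.4 to 34.0) under 2% and 87.9 CPM (80.4 to 95.9) over 30% mitochondrial UMIs at 0 h. At 48 h it was 12.4 CPM (8.84 to 17.0), from 39 UMIs, and 33.3 CPM (28.5 to 38.7), from 170 UMIs. The fall was 2.63-fold and 2.64-fold, and the log2 ratios of both sets differed by -0.01 (-0.53 to 0.51). Under 2% the interval of the log2 ratio reached to -0.94, so a fall of under 2-fold was within counting error there, and with 10 CPM added to both levels the ratio was -0.93. Cd14 and Tlr4 stayed below 2 CPM in all 4 sets, and the co-receptor Ly96 was between 8.65 and 18.8 CPM.

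Serpina3n is a mouse relative of human alpha-1-antichymotrypsin, an inhibitor of serine proteases. It was read at 246 CPM under 2% and 198 CPM over 30% mitochondrial UMIs at 0 h, and at 242 and 388 CPM at 48 h. Over 30% it was 1.96-fold higher (1.82 to 2.11), just short of the 2-fold limit. Under 2% the log2 ratio was -0.02 (-0.13 to 0.09), a sign that 5 of 12 alternatives turned.
The family member Serpina3k fell in both sets, from 31294 to 9685 CPM over 30% and from 28508 to 5585 CPM under 2%. Serpina3m went from 194 to 442 CPM and from 159 to 236 CPM. The members of this family are close copies, and how reads common to them were assigned was not tested.

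Within the undamaged library, 6 of the 10 members were at least 2-fold higher over 30% than under 2% mitochondrial UMIs, and 0 were lower, against 13.2% and 9.63% of 7652 genes. The log2 differences were 2.18 for Hp, 2.04 for Orm1, 2.01 for Orm2, 1.43 for Lbp, 1.39 for Itih3 and 1.02 for Itih4. The other 4 lay between -0.32 (Steap4) and -0.07 (Crp). With mitochondrial UMIs kept in the scaling, only Hp, Orm1 and Orm2 stayed at least 2-fold higher, and Fgl1, Steap4 and Serpina3n became at least 2-fold lower.

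In the PHx48h library 4 members were at least 2-fold higher over 30% and 0 were lower, against 34.9% and 6.64% of all genes. Their log2 differences were 1.94 for Itih4, 1.87 for Itih3, 1.42 for Lbp and 1.12 for Hp, while Orm1 (-0.13) and Orm2 (-0.01) were level. The median gene was 0.60 higher over 30% here, and Itih3 (1.27) and Itih4 (1.34) remained beyond 2-fold relative to it. With mitochondrial UMIs in the scaling 0 members were higher by 2-fold, Hp turned to -0.01, and Orm1, Orm2 and Fgl1 were at least 2-fold lower.

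**Figure D4:**
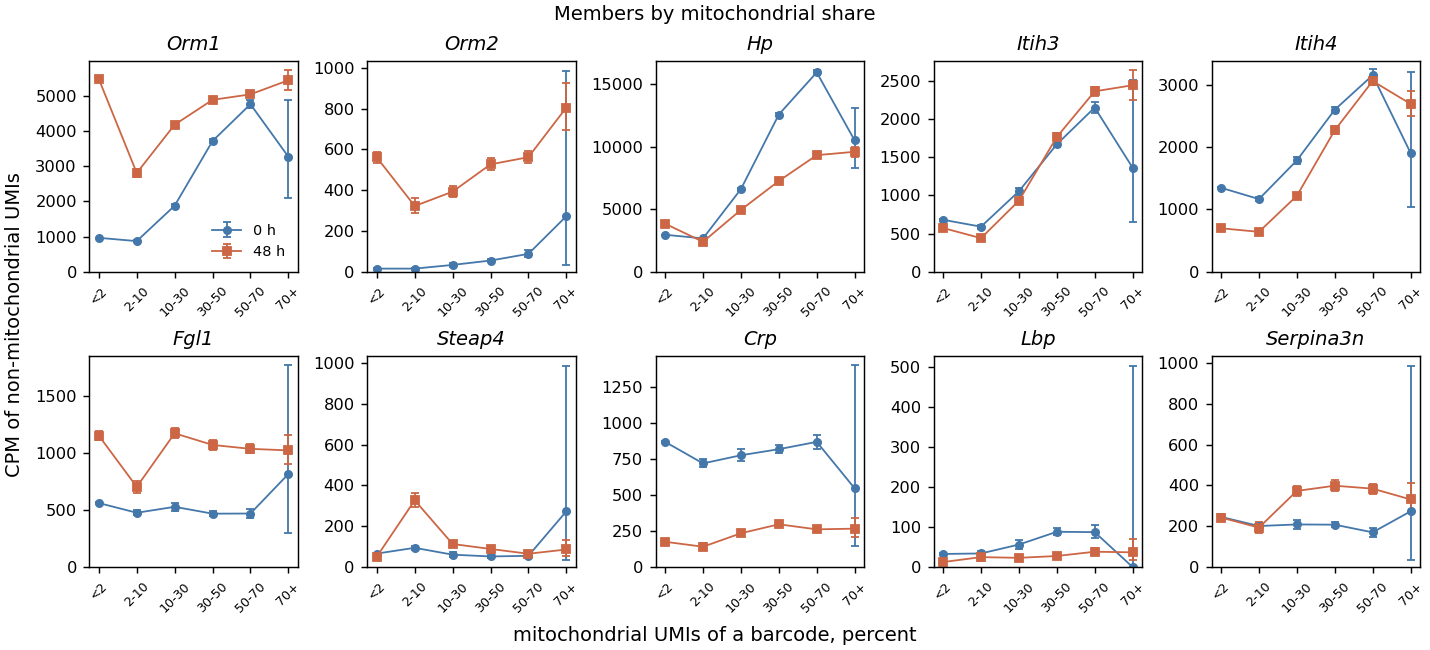
Level of each gene in CPM of non-mitochondrial UMIs, each panel on its own linear axis, in 6 ranges of the mitochondrial share of a barcode, at 0 h (blue) and 48 h (orange), with exact Poisson 95% intervals. Hp at 0 h is 2960 CPM in the lowest range, dips to 2671 CPM at 2 to 10% and reaches 15924 CPM at 50 to 70%, and the wide intervals in the highest range at 0 h come from 18 barcodes.

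The plot by mitochondrial range shows whether the limits of 2% and 30% fell on steps. Haptoglobin at 0 h was 2960 CPM under 2%, 2671 at 2 to 10%, 6608 at 10 to 30%, 12560 at 30 to 50% and 15924 at 50 to 70%. From 2% on the level thus climbed over neighbouring ranges on both sides of the 30% limit. After PHx it went through 3845, 2395, 4948, 7255 and 9314 CPM, with the same dip at 2 to 10%.
Orm1 at 0 h followed the same course, from 873 CPM at 2 to 10% to 4761 at 50 to 70%. At 48 h it was lowest at 2 to 10%, with 2808 CPM, and lay between 4180 and 5472 CPM in all other ranges. Crp stayed within 718 to 867 CPM at 0 h over the 5 ranges up to 70%, and within 141 to 296 CPM at 48 h over all 6.

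The barcodes over 30% mitochondrial UMIs were next divided into tertiles (3 groups of equal size) by zonation, the difference between hepatocytes near the portal vein and those near the central vein. The measure was the share of perivenous genes, such as Cyp2e1 and Glul, among the UMIs of perivenous and periportal genes, the latter including Cyp2f2 and Ass1. The pooled share in the lowest and the highest tertile was 23.2% and 83.3% at 0 h, and 15.3% and 66.8% at 48 h. No interval here covers variation between mice, and members are compared between tertiles of 1 library.

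At 0 h, 5 members were lower in the perivenous tertile. The log2 difference from the lowest to the highest tertile was -1.02 for Lbp (-1.39 to -0.67), -0.81 for Orm1, -0.69 for Itih4, -0.62 for Itih3 and -0.61 for Hp. Orm2 was the only member higher there, by 0.50 (0.14 to 0.86), and the intervals of Fgl1, Steap4, Crp and Serpina3n included 0. Orm2 was lowest in the middle tertile, at 48.4 CPM against 61.2 CPM in the lowest and 86.4 CPM in the highest. Orm1 stood at 4945, 3968 and 2825 CPM from the lowest to the highest. The 2 orosomucoids thus took opposite directions from the middle to the highest tertile, but not from the lowest to the middle.

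At 48 h the perivenous slope of Orm2 was steeper. Its level was 375 CPM (350 to 400) in the lowest tertile, 496 CPM (461 to 532) in the middle and 975 CPM (921 to 1032) in the highest, a log2 difference of 1.38. Orm1 stood at 4905, 5099 and 5008 CPM in the same tertiles, so its slope at 0 h was not seen. Hp was nearly level too (-0.09), while Itih3 (-0.66), Itih4 (-0.44) and Lbp (-1.34) kept the lower perivenous level. Serpina3n (-0.40) was lower and Fgl1 (0.21) higher in the perivenous tertile, and the intervals of Steap4 and Crp included 0. The tertiles also differed in depth, with median non-mitochondrial UMIs of 6782, 4130 and 3572 from the lowest to the highest, and the part of depth in these differences was not tested.

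**Figure D5:**
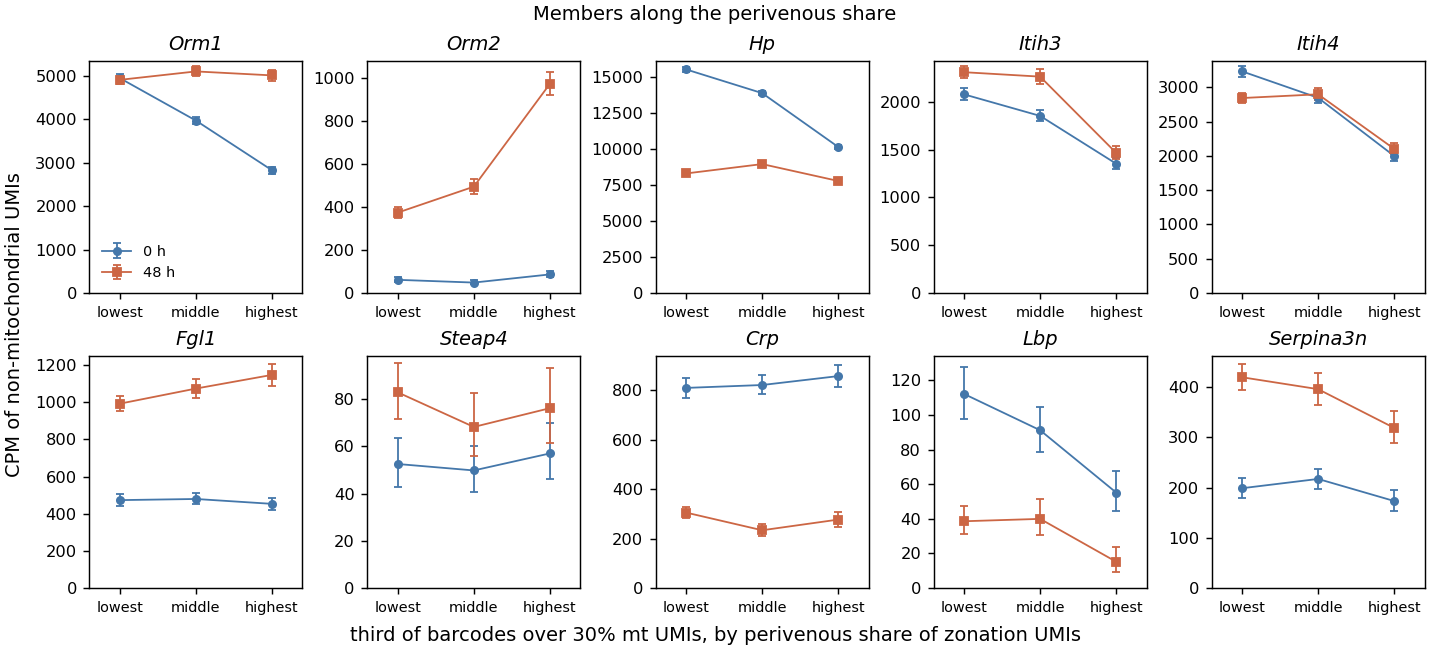
Level of each gene in CPM of non-mitochondrial UMIs, each panel on its own linear axis, in tertiles (3 equal groups) of the barcodes over 30% mitochondrial UMIs ordered by perivenous share, at 0 h (blue, 1290 barcodes per tertile) and 48 h (orange, 255 per tertile), with exact Poisson 95% intervals. Orm2 at 48 h rises from 375 to 975 CPM, Orm1 goes from 4945 to 2825 CPM at 0 h and is level at 48 h, and Lbp is lowest in the highest tertile of both libraries.

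The same division of barcodes under 2% mitochondrial UMIs gave other values, but it separated the barcodes less. The pooled perivenous share in the lowest and the highest tertile was 50.8% and 68.7% at 0 h, and 32.5% and 58.3% at 48 h. These shares lay closer together than over 30%, and how far the tertiles follow zonation was not tested. At 0 h all 10 log2 differences lay between -0.07 and 0.03. At 48 h Orm2 was again higher in the perivenous tertile, from 453 to 625 CPM (0.47). Itih3 (0.51), Itih4 (0.53), Hp (0.24) and Serpina3n (0.36) were higher there as well, opposite in sign to the barcodes over 30%.

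Serum amyloid A is the leading acute phase protein of the mouse, and the barcodes over 30% mitochondrial UMIs at 48 h were therefore also divided by the UMI share of Saa1 and Saa2. Orm2 stood at 356, 520 and 933 CPM from the lowest to the highest tertile. Orm1 (log2 difference 0.23) and Fgl1 (0.22) were slightly higher in the highest tertile. Itih3 (-0.40), Itih4 (-0.26), Serpina3n (-0.18) and Lbp (-0.75) were lower, so the members did not follow serum amyloid A as 1 group. The highest tertile was again the shallowest, with a median of 3563 non-mitochondrial UMIs against 5346 in the lowest.

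Barcodes over 30% at 48 h were last grouped by UMIs of proliferation genes. The 244 barcodes with at least 5 such UMIs were compared with the 98 barcodes without any. Hp was 9503 CPM without and 7828 CPM with them, a log2 difference of -0.28, and Itih3 (-0.44) and Itih4 (-0.45) were also lower in the first group. The intervals of the other 7 members included 0. Orm2 was nevertheless higher in the 423 barcodes between, with 1 to 4 such UMIs, at 657 CPM (623 to 692). It was at 454 CPM without any and 488 CPM with at least 5. The groups of 244 and 98 barcodes differed in median depth, at 9102.5 and 2758.5 non-mitochondrial UMIs. They also differed in median mitochondrial share, at 51.2% and 64.1%, and whether these account for the differences was not tested.

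Spread over barcodes was compared with the spread that sampling alone gives at the same depths. In undamaged barcodes under 2% mitochondrial UMIs the variance of all 10 members was 1.02 to 1.14 times the sampling value. Over 30% it was 3.78 times for Hp and 1.86 times for Orm1 at 0 h. At 48 h it was 6.84 times for Hp, 3.82 for Orm1, 3.43 for Orm2, 3.26 for Itih4 and 3.04 for Itih3. This ratio grows with depth, and the median non-mitochondrial depth over 30% was 1213.5 UMIs at 0 h and 4411 at 48 h. The coefficient of variation beyond sampling allows for depth. Over 30% it was lower at 48 h for Hp (0.347 at 0 h and 0.297 at 48 h) and Orm1 (0.337 and 0.280). The same held for Orm2 (1.68 and 0.679) and Itih4 (0.306 and 0.294). For Steap4 (0.285 and 0.706) and Crp (0.114 and 0.327) it was higher at 48 h. Fgl1 (0.205 and 0.249) and Itih3 (0.300 and 0.306) were higher as well. Lbp (0.507 and 0.737) and Serpina3n (0.332 and 0.392) are given without a direction. Their variance over 30% at 0 h was 0.929 and 0.986 times the sampling value, so no spread beyond sampling was seen there. No interval was computed for these coefficients. After each barcode was thinned to 500 non-mitochondrial UMIs, haptoglobin UMIs per barcode ran from 3 at the 10th percentile to 12 at the 90th over 30% at 0 h, and from 1 to 8 at 48 h.

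The wider acute phase response was read from lists of known genes. Of 22 other positive acute phase genes with at least 5 CPM, 8 rose and 2 fell over 30% mitochondrial UMIs, against 30.9% and 5.14% of all genes. The list median there was 0.16 on the log2 scale, below that of all genes (0.55). The largest rises were those of Lcn2 (6.91), which sequesters bacterial siderophores, and of the metallothioneins Mt1 (6.48) and Mt2 (6.16). Saa4 (-1.30) and the fibrinogen chain Fga (-1.10) fell, and Fgg was at -0.73. Under 2% mitochondrial UMIs 9 of 22 rose and 5 fell, against 24.3% and 20.7% of all genes, and the list median of 0.55 lay above that of all genes (0.05). The position of the list relative to all genes thus turned between the 2 sets.

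Of 16 genes listed as negative acute phase genes, 0 rose and 7 fell over 30%, where 30.9% of all genes rose and 5.14% fell. The 7 were Mup3, Mup20, Fetub, Ctsa, Cyp2e1, Cyp8b1 and C9, so the list also holds cytochromes and urinary proteins. Ttr (-0.09), Rbp4 (-0.29), Apoa1 (-0.32) and Trf (-0.40) did not reach 2-fold. Under 2%, 0 rose and 9 fell, where 24.3% rose and 20.7% fell. Trf (-1.90) was among the 9, whereas Apoa1 (0.94), Ttr (0.81) and Rbp4 (0.11) were higher. The lowest over 30% were the bile acid enzyme Cyp8b1 (-3.08), the cytochrome Cyp2e1 (-2.15) and the urinary protein Mup3 (-1.83). The highest over 30% were Ahsg (0.49), Alb (0.20) and Serpina6 (0.13, interval -0.03 to 0.30). All 3 turned sign under 2%, where Alb, which encodes albumin, fell (-1.11) and Ahsg (-0.48) and Serpina6 (-0.57) were lower.
A further list held components of the interleukin 6 pathway, and also Il1r1, Il1rap, Tnfrsf1a, Nr3c1 and the NF-kB genes Nfkb1, Nfkbia and Rela. Of 20 of its genes with at least 5 CPM, 3 rose and 3 fell over 30%, against 30.9% and 5.14% of all genes. Under 2%, 1 of 17 rose and 6 fell, with a list median of -0.63. Over 30%, Nfkbia (1.37), which restrains NF-kB, the kinase Jak1 (1.18) and the phosphatase Ptpn11 (1.17) rose. Cish (-1.94), a feedback inhibitor, and the receptor genes Lifr (-1.83) and Il1rap (-1.41) fell. Under 2% Nfkbia (1.44), Cish (-1.62), Lifr (-2.88) and Il1rap (-2.56) kept their direction, Ptpn11 (0.80) stayed under 2-fold and Jak1 turned sign (-0.25).

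The genes with the pattern most like that of 2 members were sought by the distance of their centred log2 CPM over the 6 sets, 3 mitochondrial ranges in each library, among 3288 genes that reached 50 CPM in a set. Nearest to Orm2 were Saa1 (distance 1.33), the apolipoprotein Apoa4 (1.35) and Angptl8 (1.54), a regulator of lipoprotein lipase. Nearest to Crp were Serpina3k (0.19), the complement gene C8b (0.26) and Cyp51 (0.28), an enzyme of cholesterol synthesis.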

How the data were processed

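Reads were processed by the authors in Cell Ranger (version not given in the sources used here), the submitters' processing notes name the build mm10, and the deposited matrices hold raw UMI counts per gene and barcode. The authors' methods mention removal of cells with high mitochondrial content and of doublets, but the deposited matrices still held barcodes over 30% mitochondrial UMIs. After filtering, the paper kept far fewer cells at 0 h than the 59202 barcodes read here, and fewer at 48 h than the 1586. Most undamaged barcodes read here therefore did not pass its filters, and its choice of cells was not applied. No doublet caller was run here, and leaving out the deepest 2% of each set was tried in its place. Counts were summed over barcode sets and divided by non-mitochondrial UMIs (Python 3.11.15, NumPy 2.4.6, SciPy 1.17.1, pandas 2.3.3). Levels have exact Poisson intervals and ratios exact conditional binomial intervals, and a difference of 2 log2 ratios has a normal interval from the counts. The call was at least 2-fold, and the background was all genes with a mean of at least 5 CPM over both sets. UMIs were treated as independent, so where barcodes vary beyond sampling the intervals are too narrow. Interval coverage and calls were tested only on simulated counts drawn without spread beyond sampling, so that test does not bear on such spread. Named genes were all 10 members, their paralogs and partners, the 3 highest and 3 lowest of each list over 30% mitochondrial UMIs, and the 3 nearest genes in pattern. Members and lists were chosen with earlier results of these data known. Cebpd, Trbc2, Ighm and Ighd of the lists had no match by symbol. Sequences were read from GENCODE M21 and RefSeq and compared with Biopython 1.88.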

Additional observations from a re-analysis of the deposited data

Results flagged for a closer look

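For 3 members the log2 ratio of 48 h over 0 h had opposite signs in the 2 barcode sets, with both counting intervals clear of 0. Hp was at -0.68 over 30% mitochondrial UMIs and at 0.38 under 2%. Itih3 was at 0.23 and -0.25. Steap4 was at 0.54 and -0.37. Whether these differences exceed the variation between mice was not tested, since each time point had 1 library.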

How the results depend on the processing

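Of 126 counts of members under alternatives, 113 stayed within 1.5 times the value given and 13 did not. In barcodes over 30% mitochondrial UMIs, 1 member in place of 2 rose after PHx without the 20 most abundant genes in the scaling, with ratios centred on the median gene, and with mitochondrial UMIs in the scaling. Under 2%, 1 in place of 2 fell with 10 CPM added and when the whole interval had to lie beyond 2-fold. The rise of Fgl1 under 2% also fell short of 2-fold in its lowest alternative (0.81), which left the count of members that rose within 1.5 times. With undamaged barcodes only down to the PHx48h minimum depth, an alternative chosen after seeing the data that kept 20 undamaged barcodes under 2%, 5 in place of 3 rose and 1 in place of 2 fell. With mitochondrial UMIs in the scaling, the set over 30% was higher for 3 members and lower for 3 at 0 h, and higher for 0 and lower for 3 at 48 h, where Hp turned to -0.0051 on the log2 scale. At 48 h, 2 were higher when centred and 7 at a limit of 1.5-fold. The cause was not tested, except that mitochondrial UMIs in the scaling lower every value of the sets chosen for them. Leaving out the 148 shared barcodes, also chosen after seeing the data, changed no count beyond 1.5 times. Of 506 member ratios, 320 stayed within the counting interval and 34 changed sign, 1 of them of at least 2-fold. No paired analysis was possible because each group had 1 library. Depth limits Lbp most, with 39 UMIs under 2% at 48 h.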
